A study of Mus musculus with 4 samples.

Results

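The genes described here are 38 components of the lysosome: hydrolases, membrane proteins, 2 transcriptional regulators and subunits of the proton pump. The rule is a list of names and uses no measured value, although it was drawn up with earlier results of these data known, and all 38 were found among the 16798 genes of the deposited count table. The cells came from the cortex of 18-month-old mice of 2 genotypes. AD mice carry the APP/PS1 transgenes, which lead to amyloid plaques, and ADAM mice carry APP/PS1 and lack the TAM receptors Axl and Mertk (Axl-/- Mertk-/-), so amyloid is common to both groups and no group without it was included. CD45+ immune cells were sorted and profiled by droplet-based single-cell RNA sequencing in 4 libraries, AD 1, AD 2, ADAM 1 and ADAM 2, each from 2 pooled cortices. The receptors are missing from the whole animal as far as the labels say. Each genotype has 2 libraries, so every p-value below is set against the spread between pools of cortices. The fits share part of that spread across genes, so it is not each gene's own alone.

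Lysosomes are the acidic compartments in which material taken up by phagocytosis and autophagy is broken down. Soluble hydrolases cut lipids, glycans and proteins, the vacuolar proton pump acidifies the lumen, and glycosylated membrane proteins line and transport across the limiting membrane. Tfeb and Tfe3 are transcription factors that bind an E-box in the promoters of many lysosomal genes and drive them together. Microglia, the phagocytes of the brain parenchyma, carry much lysosomal machinery, and mutations in many of these genes cause lysosomal storage disorders with brain disease.

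The promoters of the lysosomal genes are shown first because that shared E-box is the one sequence feature by which they are known as a network. RefSeq promoter windows, taken from 250 bases before to 50 bases after a transcription start on GRCm38.p6, were at hand for 33 of the 38 genes, and Galns, Asah1, Atp6v0d2, Atp6v1b2 and Atp6v1h had none. The E-box CACGTG, searched on both strands, lay in a window of 12 of the 33 genes (36.4%), against 2187 of 27025 genes with a window (8.09%). The longer TCACGTG, which contains the E-box and was also searched on both strands, was found in the same 12 genes (36.4%), against 1160 genes (4.29%). The 6 windows below are those of Lamp1, which holds the most matches, of 4 genes whose microglial levels are described below as higher in state 5 or as differing in that respect between genotypes, and of Lgmn, whose level was lower there. Capitals mark the E-box with its flanking base or bases. For Lgmn, which has 2 windows, the one with the match is shown.
Lamp1 promoter (chr8:13158911-13159210, plus strand): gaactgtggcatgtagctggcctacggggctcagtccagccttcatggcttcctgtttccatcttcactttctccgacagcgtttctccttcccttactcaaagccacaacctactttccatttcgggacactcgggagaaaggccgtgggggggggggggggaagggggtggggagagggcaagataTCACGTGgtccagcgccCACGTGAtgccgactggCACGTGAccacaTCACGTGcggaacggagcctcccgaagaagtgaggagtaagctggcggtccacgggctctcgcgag
Gla promoter (chrX:134600956-134601255, minus strand): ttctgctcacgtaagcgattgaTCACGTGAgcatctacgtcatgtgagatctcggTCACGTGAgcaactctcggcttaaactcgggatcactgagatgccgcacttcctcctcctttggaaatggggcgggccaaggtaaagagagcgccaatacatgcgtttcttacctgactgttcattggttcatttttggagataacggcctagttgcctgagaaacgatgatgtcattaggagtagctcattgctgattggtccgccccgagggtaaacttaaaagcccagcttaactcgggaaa
Glb1 promoter (chr9:114400828-114401127, plus strand): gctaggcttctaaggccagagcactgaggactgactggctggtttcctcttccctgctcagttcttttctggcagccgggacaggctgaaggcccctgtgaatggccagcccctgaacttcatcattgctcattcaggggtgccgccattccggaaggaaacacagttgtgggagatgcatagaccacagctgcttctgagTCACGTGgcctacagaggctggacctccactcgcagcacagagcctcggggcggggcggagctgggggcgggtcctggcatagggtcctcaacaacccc
Atp6v1a promoter (chr16:44139210-44139509, minus strand): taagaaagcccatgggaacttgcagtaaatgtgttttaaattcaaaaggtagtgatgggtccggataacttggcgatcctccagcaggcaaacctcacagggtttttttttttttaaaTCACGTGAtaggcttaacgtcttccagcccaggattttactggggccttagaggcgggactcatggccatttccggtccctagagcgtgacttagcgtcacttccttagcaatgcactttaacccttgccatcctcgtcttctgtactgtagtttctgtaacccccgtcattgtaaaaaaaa
Naglu promoter (chr11:101069844-101070143, plus strand): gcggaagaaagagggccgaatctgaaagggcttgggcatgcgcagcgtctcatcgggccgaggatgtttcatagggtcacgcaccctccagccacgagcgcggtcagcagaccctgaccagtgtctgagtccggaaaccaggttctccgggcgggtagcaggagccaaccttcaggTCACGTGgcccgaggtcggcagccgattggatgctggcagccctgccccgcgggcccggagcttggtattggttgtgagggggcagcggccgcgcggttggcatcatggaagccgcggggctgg
Lgmn promoter (chr12:102439043-102439342, minus strand): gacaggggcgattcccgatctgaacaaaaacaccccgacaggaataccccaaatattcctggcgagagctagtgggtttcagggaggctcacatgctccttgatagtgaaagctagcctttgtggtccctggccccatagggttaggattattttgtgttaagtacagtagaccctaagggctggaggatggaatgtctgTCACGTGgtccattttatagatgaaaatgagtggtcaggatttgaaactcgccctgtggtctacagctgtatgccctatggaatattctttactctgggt
Lamp1 holds 4 matches, starting 61, 45, 28 and 15 bases before the start, and Gla holds 2, at 227 and 194 bases. Glb1 has 1 match at 48 bases, Lgmn 1 at 49, Naglu 1 at 73 and Atp6v1a 1 at 131 bases before the start. The other 6 genes with a match were Atp6v0b, Atp6v0d1, Atp6v0e, Cln3, Mcoln1 and Sgsh. A match is a description of the letters, and binding was not measured in this study.

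**Figure D1:**
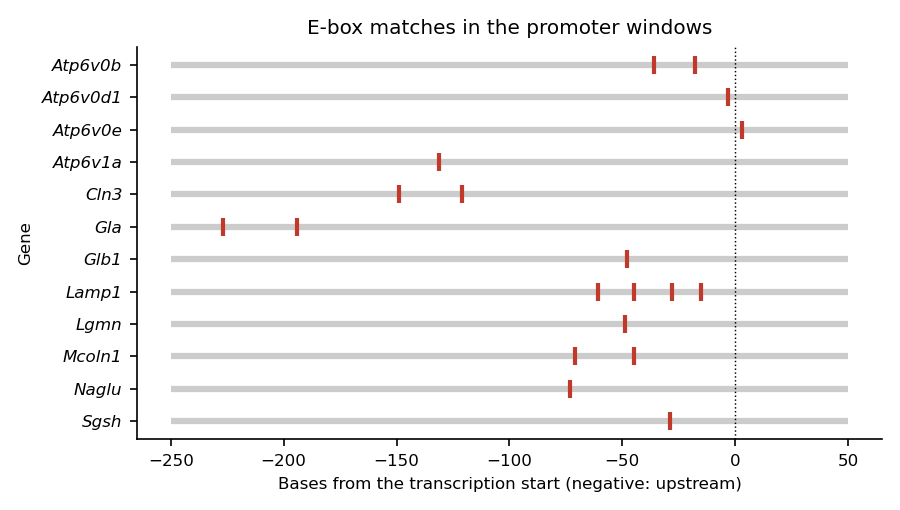
Position of each E-box match in the RefSeq promoter windows of the 12 lysosomal genes that hold one. The x axis gives the distance from the transcription start in bases, each grey bar is the 300-base window, and each red mark is the start of 1 match. Lamp1 carries 4 matches within 61 bases of the start, while both matches of Gla lie beyond 190 bases upstream.

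Libraries held 14963857 to 29831947 UMIs (unique molecular identifiers, the counted molecules), of which 8580653 to 21704070 fell in microglia. The authors grouped 14628 of 15451 cells into classes and 9077 of 9293 microglia into states numbered from 0 to 6. The 823 cells without a class were marked as doublets, and the 216 microglia without a state as doublets of a microglial and a T cell. Among all barcodes, 24 occurred in more than 1 library. Axl stood at 104, 67.1, 5.37 and 7.22 CPM (its UMIs scaled to the total of the summed cells) in microglia of the AD 1, AD 2, ADAM 1 and ADAM 2 libraries, low in both libraries labelled ADAM. Mertk stood at 274, 296, 246 and 274 CPM, so reads from its transcript remained, and the labels do not say which exons its deletion removed. ADAM 2 stood apart in its neutrophil RNA: the 7 neutrophil markers, none of them at 0, summed to 777 CPM in its microglia and to 14.9 to 54.1 CPM in the other libraries. State 2 was shallow, at a median of 808.5 to 886.5 UMIs per cell, and held red cell RNA in ADAM 2 (169800 CPM over 4 haemoglobin genes) and choroid plexus RNA in AD 1 (61490 CPM over 3 markers, with Kl at 0). Values in the 4 libraries are given below in the order AD 1, AD 2, ADAM 1 and ADAM 2. In sums over cells, fewer cells with a transcript and less RNA per cell cannot be told apart.

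The lysosomal genes made up a larger share of the RNA in microglia than in any other class with at least 20 cells in a library. Together they took 1.65% to 1.74% of microglial UMIs, 1.02% to 1.33% in macrophages, 0.822% to 0.977% in monocytes and 0.646% to 0.760% in neutrophils. They took 0.219% to 0.249% in T and NK cells. The classes were made by the authors from these same counts, so differences between classes and between states are descriptions without a test.

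T and NK cells were lower than microglia by a log2 CPM ratio of at least 0.5 in all 4 libraries for 34 of the 38 genes, where 26.0% of 9486 genes were. Cd63, a tetraspanin of late endosomes and lysosomes, stood at 21.9, 35.8, 47.7 and 42.0 CPM in T and NK cells and at 1662, 1270, 1391 and 1560 CPM in microglia. As a gauge of stray microglial RNA in these cells, the 6 microglial markers stood at 1.98% to 3.19% of their microglial level. Of the 38 genes, 36 stood above that gauge in T and NK cells of each library, with a median of 17.0% to 21.7% of the microglial level. The exceptions to the general gap were pump subunits and 1 sulfatase. Atp6v1h, a subunit of the soluble pump part, stood at 41.1, 42.5, 39.4 and 46.5 CPM in T and NK cells and at 41.5, 37.5, 35.7 and 31.7 CPM in microglia, which overlap. Sgsh, the sulfamidase that removes sulfate from heparan sulfate, was the 1 gene past the fold in the other direction, at 11.7, 10.5, 9.46 and 11.2 CPM against 3.73, 4.24, 3.74 and 3.54 CPM in microglia (21.2% of genes were higher in this comparison).

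Monocytes went both ways. They were lower than microglia in all 4 libraries for 19 of the 38 genes (21.8% of 9154 genes) and higher for 4 (15.0%): Sgsh, Tfeb, Gm2a and Atp6v1b2. Gm2a, the activator that lifts gangliosides out of membranes for hexosaminidase, stood at 507, 538, 506 and 418.5 CPM in monocytes and at 211, 190.3, 199.8 and 205 CPM in microglia. All 4 monocyte values lay above all 4 microglial ones. Atp6v1b2, a nucleotide-binding subunit of the pump's soluble part, stood at 164, 106.5, 113 and 116 CPM in monocytes and at 75.8, 61.8, 65.3 and 58.6 CPM in microglia. Atp6v1e1, from the stalk of the same part, stood at 176, 250.3, 273 and 315 CPM in monocytes, a mean log2 ratio of 0.96 over microglia with 0.48 in AD 1, just short of the fold. Monocytes of ADAM 2 carried 70970 CPM of neutrophil markers and those of the other libraries 142.6 to 4188 CPM, and the part of neutrophil RNA in these values was not tested.

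Macrophages resembled microglia more closely, with 8 of 38 genes lower (5.6% of 9478 genes) and Sgsh alone higher (6.65%). The 8 were Gla, Glb1, Gusb, Galns, Naglu, Laptm5, Creg1 and Atp6v0d2. Sgsh stood at 22.9, 16.7, 11.4 and 7.64 CPM in macrophages, higher in both AD than in both ADAM libraries. Its few UMIs there fell below the filter of the genotype fit, so that order was not tested. Of the less filled classes, neutrophils were lower for 23 of 37 genes (36.1% of 8974 genes) and higher for none (10.4%), and B cells were lower for 26 of 37 (16.0% of 9439) and higher for Tfeb alone (11.7%), in 3 libraries each. The microglial markers stood at 26.9% to 37.5% of their microglial level in neutrophils and at 1.53%, 34.1% and 27.0% in B cells of AD 1, AD 2 and ADAM 2, and the part of stray microglial RNA in these levels was not tested. Proliferating cells were lower for 18 of 37 (10.7% of 9844) and higher for none (16.6%).

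**Figure D2:**
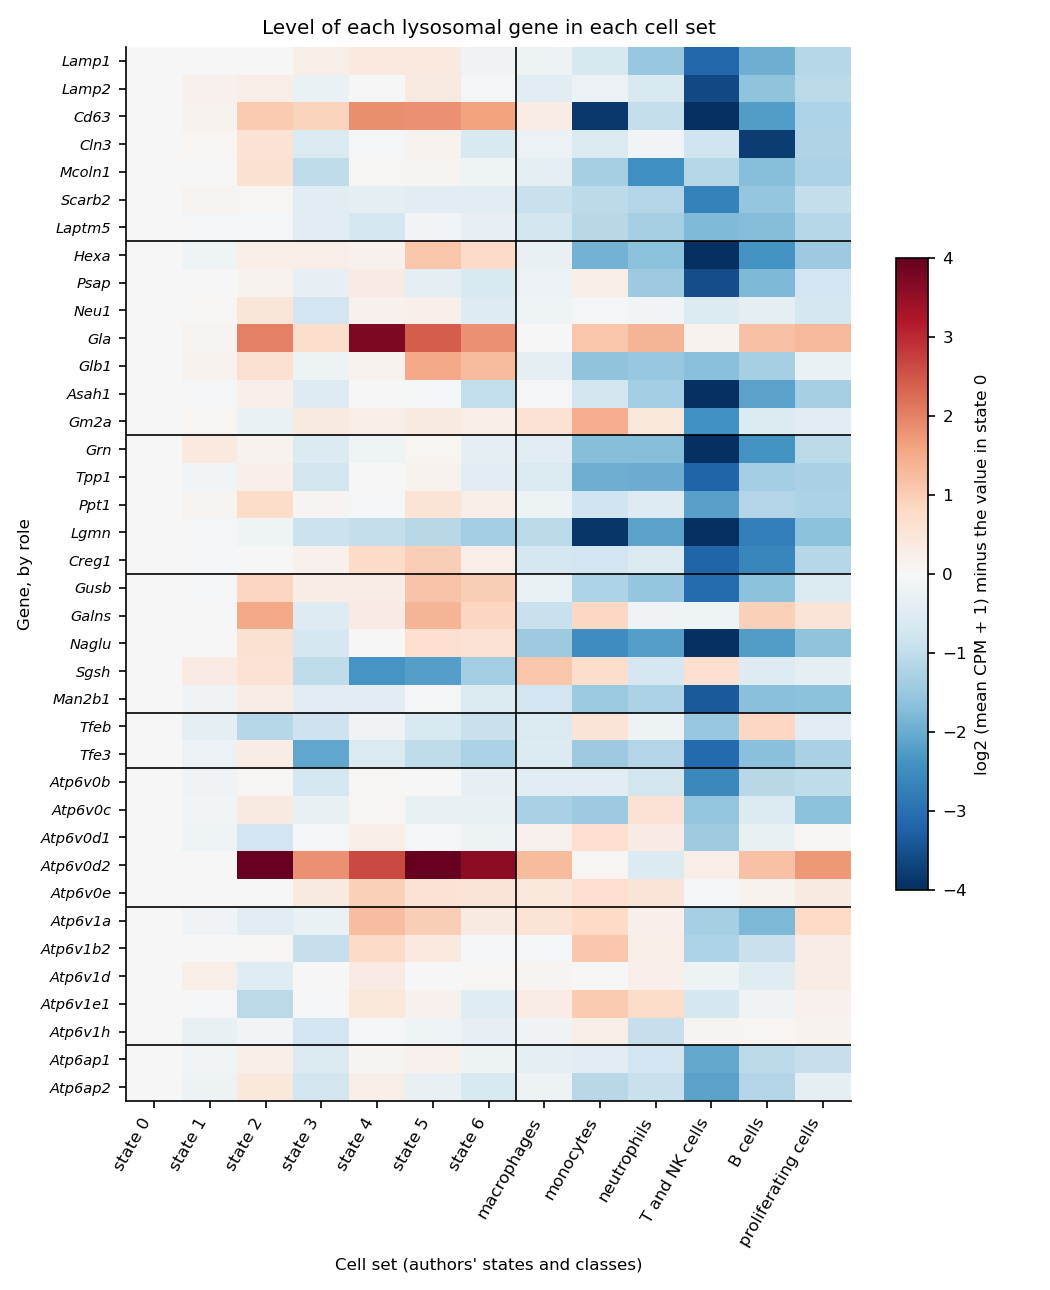
Level of each of the 38 lysosomal genes, grouped by role, in the authors' microglial states and other cell classes. Colour gives log2 of the mean CPM plus 1 over the libraries with at least 20 cells, minus the same value in state 0, and is cut at 4 in both directions. T and NK cells are blue for most hydrolases and membrane proteins and near white for Atp6v0e, Atp6v1d and Atp6v1h, and Atp6v0d2 and Gla are the darkest red in states 4, 5 and 6.

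Within microglia, states 0 and 5 held most cells. State 0 held 39.9% to 64.6% of microglia and state 5 23.3% to 37.4%. State 5 carried the markers of disease-associated microglia, the plaque-linked activated form: the 8 markers, none of them at 0, summed to 63530, 62380, 48200 and 56680 CPM there and to 6593, 6895, 6732 and 12140 CPM in state 0. A gene was counted as higher when its log2 CPM ratio of state 5 over state 0 was at least 0.5 in each library, with a pseudocount of 1 CPM, among genes with a mean of at least 5 CPM. Of the 37 lysosomal genes with that mean, 9 were higher (24.3%) and 2 lower (5.41%). Over all 9158 genes the shares were 6.41% higher and 19.4% lower. The median log2 ratio was 0.17 for the lysosomal genes and −0.33 for all genes. The summed share of UMIs was 1.9%, 1.88%, 1.84% and 1.74% in state 5 and 1.62%, 1.58%, 1.65% and 1.63% in state 0, so each state 5 value lay above each state 0 value. The sum weighs genes by their level, and Cd63, described below, made up much of the rise. With TMM scaling, which centres the bulk of genes at 0, 15 genes were higher and 2 lower (12% and 9.15% of all genes), with medians of 0.48 and −0.03.

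Among the 7 membrane proteins, Cd63 was the 1 past the fold. It stood at 600.5, 612, 764 and 834 CPM in state 0 and at 2618, 2650, 2400 and 2337 CPM in state 5, a mean log2 ratio of 1.84. Both ADAM libraries were higher than both AD libraries in state 0 and lower than both in state 5. In ADAM 2 the rise of Cd63 exceeded that of the sum over all listed genes, which went from 16290 to 17420 CPM. Lamp1 and Lamp2, the main glycoproteins of the lysosomal membrane, had mean log2 ratios of 0.38 and 0.37, with every library above 0.25 and none at 0.5. Scarb2, a glycoprotein of the lysosomal membrane that also acts as a sorting receptor, stood at 191, 179.8, 168.5 and 150.8 CPM in state 0 and at 151, 127, 126 and 113.5 CPM in state 5 (−0.41). Laptm5, a lysosomal protein of blood cells, Mcoln1, the lysosomal calcium channel, and Cln3, whose loss causes juvenile Batten disease, had mean log2 ratios between −0.11 and 0.13. Exons of Lamp1 and Cln3 overlap those of a measured gene on the opposite strand, Grtp1 and Apobr. Among the other listed genes, the same holds for Hexa (Tmem202), Grn (Fam171a2), Ppt1 (Cap1) and Atp6v1e1 (Slc25a18).

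The sphingolipid and ganglioside hydrolases held 3 of the 9 higher genes: Gla, Glb1 and Hexa. Gla (chromosome X, 134588149 to 134601125), the α-galactosidase that is deficient in Fabry disease, stood at 4.29, 3.78, 2.78 and 4.92 CPM in state 0 and at 30.1, 31.7, 17.5 and 22.6 CPM in state 5, a mean log2 ratio of 2.40. These are 16 to 52 UMIs per library in state 0 and 82 to 196 in state 5. Both AD libraries were higher than both ADAM libraries in state 5. Glb1, the β-galactosidase of gangliosides, stood at 51.5, 40.9, 49.6 and 42.2 CPM in state 0 and at 164, 131.5, 128 and 114 CPM in state 5 (mean log2 ratio 1.52). Its exons share bases with Tmppe on the same strand. Hexa, which encodes a subunit of a ganglioside-degrading hexosaminidase, stood at 737, 663, 791 and 665 CPM in state 0 and at 1531, 1551, 1534 and 1558 CPM in state 5 (1.12), with near-equal values in the 4 libraries of state 5.

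The other 4 members of this group did not pass the fold. Psap, the precursor of the saposins, stood at 1978, 2076, 2145 and 2179 CPM in state 0 and at 1618, 1653, 1627 and 1498 CPM in state 5 (−0.39). Gm2a, Neu1, a sialidase, and Asah1, acid ceramidase, had mean log2 ratios of 0.37, 0.20 and −0.06.

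Among the glycosaminoglycan and glycoprotein hydrolases, Galns and Gusb were higher, Naglu fell short in 1 library, and Sgsh was below the minimum level. Galns (chromosome 8, 122578242 to 122611463), a sulfatase of keratan sulfate, stood at 7.24, 5.38, 9.68 and 9.14 CPM in state 0 and at 25.3, 20.9, 17.5 and 22.6 CPM in state 5 (mean log2 ratio 1.37). Gusb, the β-glucuronidase, stood at 244, 214, 221 and 269.5 CPM in state 0 and at 644, 488, 498 and 447 CPM in state 5 (1.12), and was the higher gene nearest the fold, at 0.73 in ADAM 2. Naglu (chromosome 11, 101070012 to 101077672), which removes glucosamine residues from heparan sulfate, stood at 90.3, 82.0, 88.8 and 91.0 CPM in state 0 and at 161, 149, 141 and 116 CPM in state 5. Its mean log2 ratio was 0.67, with 0.35 in ADAM 2. Sgsh, the other heparan sulfate enzyme of the list, stood at 7.77, 5.60, 5.45 and 6.33 CPM in state 0 and at 0.506, 0.809, 0.856 and 0.179 CPM in state 5, the last from 1 to 5 UMIs per library. All 4 state 0 values lay above all 4 state 5 values, the opposite order to Naglu. Man2b1, an α-mannosidase, had a mean log2 ratio of −0.09.

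Among the proteases and other soluble proteins, Lgmn had the lowest mean log2 ratio of the 37 genes above the minimum level. Lgmn (chromosome 12, 102394084 to 102439813), the asparagine endopeptidase legumain, stood at 3133, 2811, 2979 and 2927 CPM in state 0 and at 1421, 1333, 1514 and 1255 CPM in state 5, a mean log2 ratio of −1.10. Creg1, a small lysosomal glycoprotein, went the other way, at 523, 500.1, 479 and 437 CPM in state 0 and 1022, 1027, 901 and 853 CPM in state 5 (0.97). The groups of 4 values did not overlap for either gene. Ppt1, the palmitoyl thioesterase, had a mean log2 ratio of 0.53 with 0.43 in its lowest library. Tpp1, a tripeptidyl peptidase, and Grn, progranulin, had 0.15 and 0.07.

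Both regulators stood lower in state 5. Tfe3 (chromosome X, 7762560 to 7775202) stood at 97.5, 100.3, 96.9 and 95.2 CPM in state 0 and at 46.5, 47.4, 46.6 and 49.4 CPM in state 5, a mean log2 ratio of −1.02. Tfeb (chromosome 17, 47737030 to 47792419) stood at 29.5, 28.7, 30.6 and 28.8 CPM in state 0 and at 18.2, 18.0, 17.3 and 22.9 CPM in state 5 (−0.60), short of the fold in ADAM 2 at −0.32. With TMM scaling their mean log2 ratios were −0.71 and −0.30. Mitf, the related factor outside the list, had 0.65. Of the 11 genes with an E-box match and enough RNA, 3 were higher (Atp6v1a, Gla and Glb1) and 1 lower (Lgmn), with a median log2 ratio of 0.38. Of the 21 genes with a window and no match, 4 were higher (Cd63, Creg1, Gusb and Hexa) and 1 lower (Tfe3), with a median of 0.15, and the difference between these groups of genes was not tested.

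In the proton pump, 1 subunit of the membrane part and 1 of the soluble part were higher. Atp6v0d2 (chromosome 4, 19876841 to 19922605), a form of the pump's d subunit that is best known from osteoclasts, stood at 0.804, 0.945, 0.726 and 0.351 CPM in state 0 and at 122, 119, 71.2 and 99.7 CPM in state 5. That is 2 to 13 UMIs per library against 333 to 738, and a mean log2 ratio of 5.91 that ran from 4.22 to 7.03 with other pseudocounts. Atp6v0d1 (chromosome 8, 105524465 to 105566047), the widely expressed form of the same subunit, stood at 89.0, 80.1, 89.4 and 77.5 CPM in state 0 and at 81.4, 83.8, 78.7 and 75.5 CPM in state 5. Its mean log2 ratio was −0.07, and 0.25 with TMM scaling, so its sign depends on the scaling while the groups overlap.

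Atp6v0d2 was found in a minority of state 5 cells. With each cell thinned to 2000 UMIs, at least 1 UMI was found in 16.1%, 17.2%, 10.2% and 13% of state 5 cells (unthinned 36.2%, 37.8%, 25.4% and 31.1%). The thinned shares in T and NK cells, where this gene is not expected, were 0.116%, 0% of 758 cells, 0.329% and 0.152%. A count of 0 in those 758 cells allows a share of up to 0.396%. In state 0 the thinned shares were 0.140%, 0.253%, 0.0820% and 0% of 812 cells, the last allowing up to 0.369%, which reads as background beside the T and NK cells. The thinning left out 10 to 50 cells of state 0, 13 to 29 of state 5 and 70 to 161 T and NK cells per library. The median unthinned depth was 6200.5 to 7883 UMIs in state 5 and 2925.5 to 3547.5 in T and NK cells. Intervals and limits of shares cover counting error only.

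Atp6v1a, the catalytic subunit of the soluble part, stood at 53.6, 58.3, 52.0 and 59.0 CPM in state 0 and at 118, 111, 112.5 and 105 CPM in state 5 (0.99), with no overlap. Atp6v0e, a small membrane subunit, had a mean log2 ratio of 0.57 and missed the fold in 1 library at 0.45. The remaining subunits had mean log2 ratios between −0.30 and 0.39: Atp6v0b, Atp6v0c, Atp6v1b2, Atp6v1d, Atp6v1e1, Atp6v1h and the accessory proteins Atp6ap1 and Atp6ap2. Atp6v0c, the proton-carrying ring subunit, was counted at only 12.3, 7.20, 6.29 and 9.66 CPM in state 0 and 9.10, 6.63, 4.49 and 7.70 CPM in state 5. Pseudogene copies of Atp6v0c and of Cd63 are annotated, so reads of these genes may have been split by the counting.

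**Figure D3:**
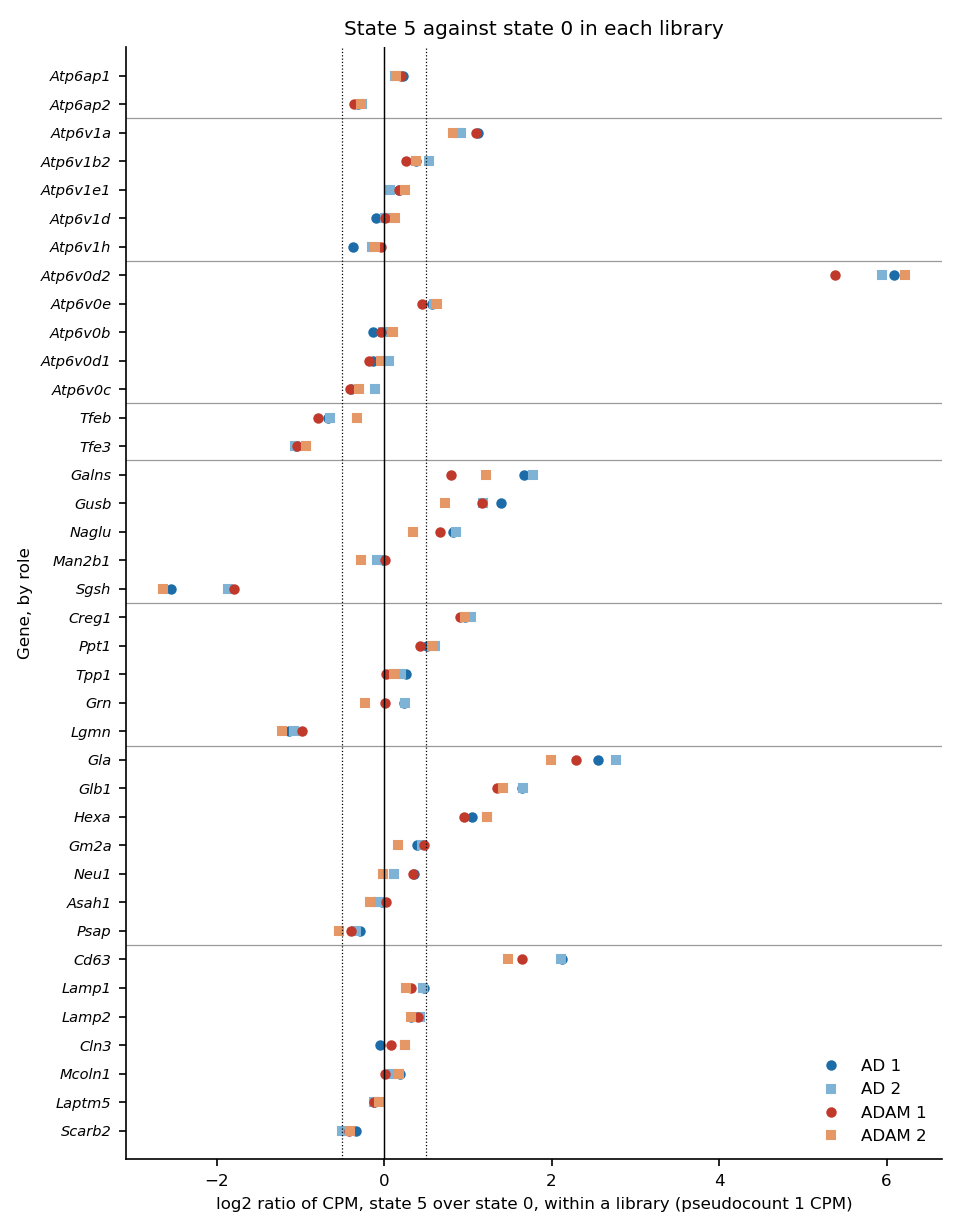
Log2 ratio of CPM in state 5 over state 0 within each library for the 38 lysosomal genes, grouped by role, with 1 point per library and dotted lines at the fold of 0.5 in both directions. Sgsh is drawn but lies below the minimum mean of 5 CPM. Atp6v0d2 lies beyond 5 in all 4 libraries. Several genes, among them Cd63, Galns, Naglu, Gla, Glb1 and Gusb, are lower in both ADAM libraries than in both AD libraries.

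The lysosomal genes outside the list showed a similar division. Of 59 such genes with a mean of at least 5 CPM, 12 were higher (6.41% of 9158 genes) and 7 lower (19.4%), with a median of 0.11. The higher genes included the cathepsins Ctsb, Ctsd, Ctsl and Ctsz, the cholesterol carrier Npc2 (0.99) and the scavenger receptor Cd68 (1.30). The lower genes were Ids, Acp2, Pla2g15, Cd164, Atp6v0a2, Flcn and Slc38a9. Ctsd had a mean log2 ratio of 1.19. Tcirg1, another subunit of the pump's membrane part, had −0.14.

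State 4, a small state of 23 to 62 cells per library, shared part of this pattern. Its disease-associated markers summed to 59400, 63890, 37310 and 47310 CPM. These sums were near the state 5 level in the AD libraries and below it in ADAM 1 and ADAM 2 (48200 and 56680 CPM in state 5). Over state 0, 6 of 37 lysosomal genes were higher (4.48% of 9112 genes) and 2 lower (11.9%). The 6 were Cd63, Gla, Atp6v0d2, Atp6v0e, Atp6v1a and Atp6v1b2, so 4 pump subunits were among them, and Lgmn and Laptm5 were the lower ones.

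Set directly against state 5, state 4 had 1 gene higher (3.07% of 8856 genes) and 5 lower (3.04%). Gla was the higher gene, at 66.7, 50.7, 59.8 and 83.4 CPM in state 4, from 12 to 31 UMIs per library, and every value lay above the 17.5 to 31.7 CPM of state 5. After thinning to 2000 UMIs, 10.7%, 11.3%, 16.3% and 13% of state 4 cells held a Gla UMI, against 3.36%, 4.38%, 2.59% and 4.91% of state 5 cells and 0.528% to 1.16% of T and NK cells. The lower genes were Hexa, Glb1, Galns, Laptm5 and Atp6v0d2. Glb1 stood at 38.9, 50.7, 55.2 and 58.8 CPM in state 4, all below the 114 CPM that was its lowest value in state 5. Atp6v0d2 stood at 5.56, 11.5, 2.30 and 19.6 CPM in state 4, from 1 to 7 UMIs per library. Galns likewise rested on 2 to 5 UMIs. The macrophage markers summed to 180 to 534 CPM in state 4 (Lyve1 at 0) and 11.6 to 42.2 CPM in state 5, and their part in these differences was not tested.

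In the remaining states fewer of the genes departed from state 0, apart from state 6. State 1 had none of 36 higher or lower (2.70% and 0.992% of 9172 genes, 3 libraries). State 2 had 3 higher (5.35% of 9811) and 1 lower (7.29%). State 3 had Cd63 alone higher of 36 (3.13% of 8667) and 6 lower (37.5%), among them Tfeb, Tfe3 and Lgmn. State 6, in 3 libraries, had 6 higher of 37 (7.57% of 9094) and 4 lower (24.0%). Its higher genes were Cd63, Hexa, Gla, Glb1, Gusb and Atp6v0d2, and its lower genes were Psap, Asah1, Tfe3 and Lgmn.

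The genotypes were then compared on summed UMIs with edgeR's quasi-likelihood test, with p-values adjusted over all genes by the Benjamini-Hochberg method. No lysosomal gene passed an adjusted p of 0.05 between ADAM and AD in any of 10 sets. The shares of all genes called were 0.0419% in microglia, 0.101% in state 0, 0.0635% in state 2, 0.313% in state 3, 0.127% in state 4 and 0.153% in state 5. In the other classes they were 0.0154% in macrophages, 0.155% in monocytes, 0.241% in T and NK cells and 0.0842% in proliferating cells. DESeq2 and limma-voom on the same sums called no lysosomal gene in these sets either. At an unadjusted p under 0.05, edgeR counted 0 lysosomal genes in microglia (280 of all 11924 genes), macrophages (143 of 6483), state 2 (96 of 3150), state 3 (158 of 3191) and state 4 (132 of 3938). It counted 2 of 37 in state 0 (460 of 10912) and 5 of 37 in state 5 (553 of 10436). In the other classes it counted 2 of 33 in monocytes (550 of 6460), 7 of 36 in T and NK cells (496 of 9533) and 7 of 32 in proliferating cells (622 of 7124). Folds below are log2, ADAM over AD, after TMM scaling, and so differ from the ratio of the CPM values by the scaling.

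Over all microglia, 21 of 38 genes had a fold above 0, with a median of 0.006 (0.004 over all genes). The 3 genes with the smallest p were Atp6v1h, Ppt1 and Scarb2. Atp6v1h stood at 41.5, 37.5, 35.7 and 31.7 CPM (−0.17, SE 0.12, edgeR adjusted p = 0.9999) and Scarb2 at 165, 162.5, 155 and 133 CPM (−0.14, SE 0.12), both lower in each ADAM library. Ppt1 stood at 251, 254, 245 and 323 CPM (0.23, SE 0.16), where ADAM 2 alone was high and the fold was −0.02 without it. Sums over all microglia also move with the mix of states, since state 5 was 37.1%, 23.3%, 27.2% and 37.4% of the microglia. The Cd63 level of 1662, 1270, 1391 and 1560 CPM followed that order of high and low libraries within each genotype, and the fold was 0.06 (SE 0.17).

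Within state 0, 29 of 37 tested genes had a fold above 0, with a median of 0.10 (0.01 over all genes). Cd63 came nearest to the threshold, at a fold of 0.48 (SE 0.13, edgeR adjusted p = 0.514), with both ADAM libraries higher. Galns had 0.73 (SE 0.23, edgeR adjusted p = 0.813) and was also higher in both ADAM libraries. Ppt1 stood at 207, 219, 219 and 263 CPM, a fold of 0.26 (SE 0.12), with ADAM 2 alone high. The disease-associated markers of state 0 stood at 12140 CPM in ADAM 2 and at 6593 to 6895 CPM in the other 3 libraries, and their part in these values was not tested.

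Within state 5 the folds leaned the other way: 10 of 37 tested genes had a fold above 0, with a median of −0.07 (0.001 over all genes). Gla was lower in both ADAM libraries, with a mean of 20.1 ± 3.55 CPM (SD, n = 2) against 30.9 ± 1.14 in AD, a fold of −0.62 (SE 0.16, edgeR adjusted p = 0.231). Atp6v0d2 had 85.5 ± 20.1 CPM against 121 ± 1.95, a fold of −0.50 (SE 0.14, edgeR adjusted p = 0.423). Both genes passed in edgeR when no genes were filtered out (adjusted p = 0.0234 and 0.011). In that setting 112 of all 15032 genes passed, against 16 of 10436 in the main fit. Over the alternatives the fold ran from −0.82 to −0.46 for Gla and from −0.76 to −0.28 for Atp6v0d2. Over the 10 alternatives the adjusted p of Gla reached 0.9999, as did that of Atp6v0d2. Glb1 (−0.29, SE 0.13), Naglu (−0.27, SE 0.12) and Grn (−0.26, SE 0.12) were the other 3 genes at an unadjusted p under 0.05, with each ADAM library below each AD library. The disease-associated markers were also lower in both ADAM libraries of state 5 (48200 and 56680 against 63530 and 62380 CPM), and their part in these values was not tested.

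**Figure D4:**
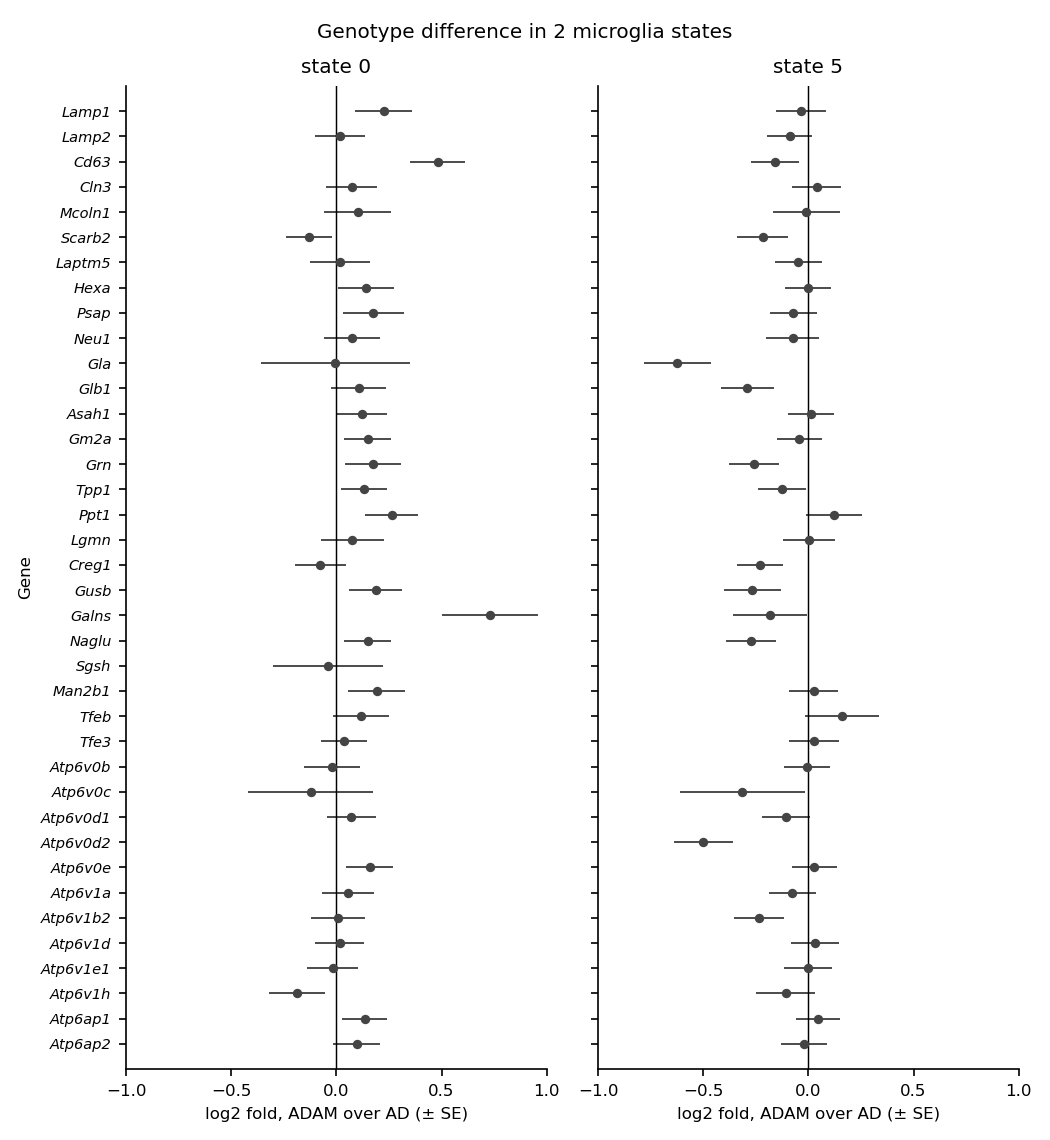
Log2 fold of ADAM over AD for each tested lysosomal gene in state 0 (left) and state 5 (right), with bars of 1 standard error from edgeR. In state 0, 29 of 37 points lie right of 0, led by Galns at 0.73 and Cd63 at 0.48, and in state 5, 10 of 37 do, with Gla at −0.62 and Atp6v0d2 at −0.50 farthest left. No point passes the adjusted threshold.

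The contrast of state 5 over state 0 was then compared between genotypes in 1 edgeR fit with library as a term, which tests that difference directly. The contrast was smaller in ADAM for 3 of the 38 genes (7.89%), Cd63, Naglu and Galns, at an edgeR adjusted p under 0.05, against 113 of 11132 genes in either direction (1.02%). None was larger in ADAM. Cd63 differed by −0.64 log2 units (SE 0.14, edgeR adjusted p = 0.00141), with a log2 CPM ratio of 2.12, 2.11, 1.65 and 1.48 in the 4 libraries. Naglu differed by −0.42 (SE 0.12, edgeR adjusted p = 0.0371) and Galns by −0.91 (SE 0.26, edgeR adjusted p = 0.0452). In each of these 3 genes both ADAM libraries had a smaller ratio than both AD libraries. The genes were picked by a test on the same counts, so this order is no separate evidence. Genes that were not called, among them Gla, Glb1 and Gusb, had the same order of libraries.

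The 3 called genes reached a smaller contrast by different routes. For Cd63, the state 0 level was higher and the state 5 level lower in both ADAM libraries. For Naglu, state 0 values overlapped (82.0 to 91.0 CPM) and the state 5 values were lower in ADAM. For Galns, state 0 values were higher in ADAM and the state 5 values overlapped. Gusb (−0.43, SE 0.12, edgeR adjusted p = 0.0507) and Grn (−0.44, SE 0.13, edgeR adjusted p = 0.0751) came next, and neither passed. With DESeq2 size factors in edgeR, Gusb passed as well (adjusted p = 0.0206). Without a filter on low counts Gusb and Grn passed (edgeR adjusted p = 0.0217 and 0.0395) and Galns did not (0.0505). Of all 38 genes, 6 had an estimate above 0, with a median of −0.14 (−0.009 over all genes). Among the 61 other lysosomal genes tested, Galc, a galactosylceramidase, was called as smaller in ADAM.

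The calls depend on the libraries and the tool. DESeq2 called Cd63 alone (adjusted p = 0.0056) and 9 genes in all, and gave no adjusted p for Naglu and Galns. Without AD 1 no lysosomal gene passed in edgeR, without AD 2 Cd63 alone, without ADAM 1 Gusb, Cd63 and Naglu, and without ADAM 2 Galns alone. The estimates kept their sign throughout, from −0.75 to −0.54 for Cd63, −0.61 to −0.24 for Naglu and −1.10 to −0.71 for Galns. The disease-associated markers moved with this result, being lower in state 5 of both ADAM libraries and higher in state 0 of ADAM 2, and their part in it was not tested. The neutrophil markers of ADAM 2 were high in both states (676 CPM in its state 0 and 690 CPM in its state 5, against 8.58 to 26.3 CPM elsewhere).

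**Figure D5:**
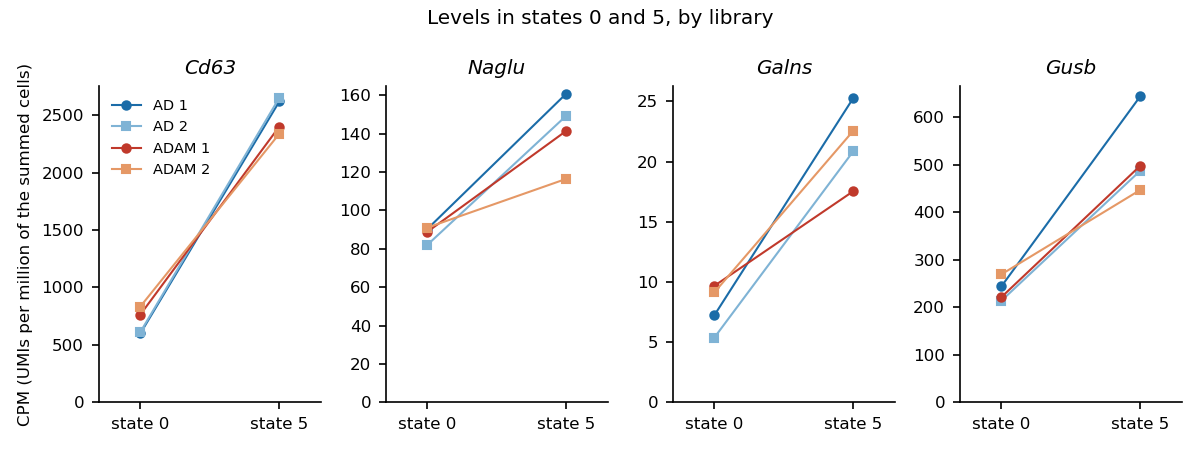
Level in CPM of Cd63, Naglu, Galns and Gusb in the summed cells of state 0 and state 5, with 1 line per library and each y axis starting at 0. The ADAM lines of Cd63 start above and end below the AD lines, and the ADAM 2 line of Naglu ends lowest, at 116 CPM.

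Outside microglia, the folds nearest the threshold were in T and NK cells and in proliferating cells. Lgmn stood at 41.7, 44.0, 74.9 and 67.7 CPM in T and NK cells, higher in both ADAM libraries, a fold of 0.74 (SE 0.15, edgeR adjusted p = 0.0625). The median fold of the 36 genes tested there was 0.13 (−0.006 over all genes), and 27 were above 0. The 6 microglial markers, none of them at 0, summed to 275, 295, 434 and 329 CPM in the same cells, also higher in both ADAM libraries, and their part in the Lgmn value was not tested. Among the other lysosomal genes, Ctsh and Ctsl were called there.

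In proliferating cells, 38 to 63 per library, Atp6v1e1 stood at 54.9, 86.2, 221 and 193.5 CPM, a fold of 1.67 (SE 0.38, edgeR adjusted p = 0.16), higher in both ADAM libraries. Cd63 stood at 134, 210.5, 554 and 303 CPM (1.45, SE 0.42). The median fold of 32 genes was 0.42 (0.03 over all genes). This class mixes cell types: its microglial markers summed to 4712, 4538, 3376 and 1121 CPM, its T and NK cell markers to 3896, 1843, 843 and 739 CPM, and its neutrophil markers to 3.43, 174.5, 112 and 18510 CPM. None of these markers was at 0 in the class, and their part in the folds was not tested. Without ADAM 1, 8 of 34 lysosomal genes passed, 4 in each direction, where 750 of 7283 genes did. Without ADAM 2, 14 of 32 passed, all higher, where 778 of 7426 genes did, 503 of them higher.

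In macrophages the smallest p-values belonged to Tfeb, Atp6v1h and Ppt1. Tfeb stood at 26.1, 22.8, 17.1 and 11.5 CPM, lower in both ADAM libraries, a fold of −0.68 (SE 0.49, edgeR adjusted p = 0.9995). Atp6v1h stood at 22.9, 35.0, 48.0 and 36.3 CPM (0.51, SE 0.38) and Ppt1 at 157, 193, 183 and 250.1 CPM (0.31, SE 0.29). In monocytes, 20 of 33 tested genes had a fold above 0, with a median of 0.04. Psap stood at 3178, 2872, 2170 and 1834 CPM there, lower in both ADAM libraries (−0.56, SE 0.16, edgeR adjusted p = 0.329). Cd63 stood at 13.9, 45.7, 55.5 and 73.6 CPM (1.16, SE 0.48, edgeR adjusted p = 0.573), with AD 1 alone far below the rest. Of the 38 genes, Tpp1 and Cln3 share chromosome 7 with the deleted Axl, at 79.96 and 100.78 Mb from it, and neither was called in any set.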

How the data were processed

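Single-cell RNA was counted in 4 libraries of CD45+ cortical cells, 2 per genotype. The authors deposited a matrix of raw UMI counts, 16798 genes by 15451 cells, and the authors' cell table gives class, state and doublet marks. Tools named in the submitters' processing notes are Seurat 3.2.1.9002 and Cell Ranger 3.1.0, with the build mm10, and no source here gives the filters. The lowest UMI count of a cell was 500 and the highest mitochondrial share 9.99%, the mitochondrial percent being the authors' own.

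For each library, counts of the cells of a class or state were added up, and wherever all 4 libraries had 20 or more cells the genotypes were compared with edgeR 4.0.16 (quasi-likelihood, TMM, minimum count 10, robust) in R 4.3.3, adjusted over all genes. States and classes come from these counts, so their differences are given as CPM ratios without a test. DESeq2 1.42.0, limma-voom (limma 3.58.1), other scalings and filters, thinned cells and left-out libraries were the alternatives. Fits were tested on simulated data. The main fits took no pairing from the replicate numbers. Deviations of same-numbered libraries correlated at −0.223 over 11924 genes of summed microglia. Those sums also move with the mix of states, so this value cannot decide whether the libraries were paired. An exact permutation of 2 against 2 libraries cannot give a p below 0.333.

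Positions come from GENCODE vM21 (GRCm38), where each of the 38 genes matched once. The members, lists and tests were chosen with earlier results of these data known. By rule, per-library values were given for genes called in a fit, the 6 highest and 6 lowest in state 5 over state 0, the 3 smallest p-values in 4 fits, both regulators, both d subunits of the pump and the genes highest in other classes. Further genes were named after their values were seen.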

Additional observations from a re-analysis of the deposited data

Results flagged for a closer look

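The contrast of state 5 over state 0 differed between the genotypes, by the interaction test of edgeR, for 3 lysosomal genes, and each was smaller in ADAM. The difference was −0.64 log2 units for Cd63, −0.91 for Galns and −0.42 for Naglu. In each gene both ADAM libraries had a smaller ratio than both AD libraries, which is no separate evidence from the test. Genes that were not called, such as Gla and Glb1, had that order of libraries too. DESeq2 gave no adjusted p for Galns and Naglu. For Cd63 the adjusted p ranged from 2.1e-04 to 0.293 over the alternatives, for Galns from 0.0314 to 0.472 and for Naglu from 0.0011 to 0.665.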

How the results depend on the processing

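With 2 libraries per genotype, 1 library decides most calls. The count of lysosomal genes called between genotypes was 0 with and without the replicate block in microglia, states 0, 2, 3, 4 and 5, macrophages, monocytes and proliferating cells. In T and NK cells the replicate block called 1 gene (Lgmn), where 90 of all 9533 genes were called. The crossed pairing, which was chosen after seeing the data, called Lgmn there too (74 of 9533 genes). In proliferating cells the crossed pairing called 1 gene (172 of 7124). In the labels, same-numbered libraries share only a number. Without a filter on low counts, edgeR called 2 genes in state 5 (112 of all 15032 genes) and 1 in monocytes, Cd63 (276 of 13005). It called 1 in T and NK cells, Lgmn (107 of 14646), and 4 in proliferating cells (340 of 13802).

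Leaving out 1 library at a time gave 0 to 2 calls in state 5 and 0 to 14 in proliferating cells. Median folds ranged from −0.066 to 0.062 in microglia, 0.093 to 0.11 in state 0 and −0.40 to −0.072 in state 2. They ranged from −0.11 to 0.0069 in state 3, −0.054 to 0.12 in state 4 and −0.099 to −0.032 in state 5. In the other classes they ranged from 0.033 to 0.15 in monocytes and 0.035 to 0.27 in T and NK cells. The ranges were −0.25 to 0.12 in macrophages and 0.10 to 0.85 in proliferating cells. The fold of Ppt1 in microglia ranged from −0.017, a reversal without ADAM 2, to 0.44.

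For the state 5 contrast between genotypes, DESeq2 called 1 lysosomal gene and 9 genes in all. Without 1 library the counts ranged from 0 to 3 and from 51 to 173, and the median from −0.18 to −0.13. For state 5 over state 0, TMM scaling gave 15 higher genes and a median of 0.48, a log2 ratio of 0.25 gave 15 higher and 6 lower (10.9% and 38.0% of all genes), and a ratio of 1 gave 4 higher and 0 lower (3.59% and 5.99%). Thinning to 1000 UMIs in place of 2000 lowered the share of state 5 cells with Atp6v0d2 to 9.29%, 8.73%, 3.81% and 6.88%, and that of state 0 cells with Cd63 to 37.3%, 41.5%, 45.1% and 48.9%, in the order of libraries used above. Over all alternatives, 232 summary values stayed close to the one reported and 46 moved; for single genes 263 did, 13 moved, 9 lost a call, 4 gained one and 1 reversed. Sets with few cells, such as state 4, and genes with few UMIs, such as Sgsh and Atp6v0c, limit what these depths can show.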
